A study of Homo sapiens with 12 samples.

Results

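DNA replication licensing and fork genes encode the proteins that mark replication origins, load and start the replicative helicase, copy the DNA and protect the moving fork. The set held 45 genes, chosen by name, and their probes were found by the symbols of the platform annotation among 20042 genes that probes of a single gene name. Of the 45, 43 had a probe detected on at least 3 of the 12 arrays and were tested among 12507 genes in all. GINS1, a helicase subunit, and PRIM2, the large primase subunit, were not tested, because the probe of GINS1 was detected on 2 arrays and that of PRIM2 on 0. The set was read in 7 subsets, namely helicase, origin licensing, polymerase and primase, clamp and clamp loaders, strand processing and single-stranded DNA (ssDNA) binding, fork protection and checkpoint, and E2F factors.

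The cells were MDA-MB-231, a line from a human breast cancer in which the tumour suppressor p53 is mutant, and their total RNA was hybridised to Illumina bead arrays. The study crossed a control or a p53 siRNA with no treatment or tumour necrosis factor (TNF), an inflammatory cytokine, which addresses how p53 in these cells bears on the response to TNF. The 4 groups of 3 arrays were control siRNA untreated, control siRNA with TNF, p53 siRNA untreated and p53 siRNA with TNF, where TNF-alpha was given at 10 ng/ml. Cells of all 4 groups were moved from 10% to 0.1% serum at 48 h after transfection and kept there for 20 h, so every value comes from cells in low serum. All arrays come from 1 cell line, the siRNA sequences are not given in the sources used here, and effects of an siRNA beyond its target are not separated from those of p53. The labels call the arrays biological replicates, and p-values rest on the spread among them.

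Origins are licensed when the origin recognition complex, CDC6 and CDT1 load rings of the MCM proteins on DNA, and geminin blocks a further loading by binding CDT1. At the start of S phase, kinases and MCM10 turn each ring, joined by CDC45 and the GINS complex, into the active helicase. Polymerase alpha with primase lays primers, polymerases epsilon and delta extend them on the ring-shaped clamp PCNA, and FEN1 and LIG1 join the pieces. Most of these genes are known targets of the E2F transcription factors, whose release from the retinoblastoma protein switches them on as cells enter S phase, so in cultured cells their RNA tracks proliferation.

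The promoters of these genes are shown because E2F factors are known to bind there. RefSeq windows of 300 bases on GRCh38.p14, from 250 bases before to 50 after a transcription start, matched 38 of the 45 genes, with 47 windows in all. MCM4, MCM5, GINS4, DSCC1, POLD3, RPA2 and RPA3 had no window. The words searched on both strands were TTTCGCGC, TTTGGCGC, TTTCCCGC and TTTGCCGC, each a strict form of the E2F site. Capitals mark these words in the following stretches of 30 bases, written 5′ to 3′ on the strand of the gene, and adjoining capitals are overlapping words on opposite strands.
MCM2 (helicase subunit), chr3:127598404-127598433, plus strand: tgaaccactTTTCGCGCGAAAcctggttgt
MCM6 (helicase subunit), chr2:135876575-135876604, minus strand: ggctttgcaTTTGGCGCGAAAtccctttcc
MCM6, a nearby site, chr2:135876513-135876542, minus strand: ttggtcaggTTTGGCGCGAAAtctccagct
CDC6 (helicase loader), chr17:40287877-40287906, plus strand: ccattcggaTTTGGCGCgagcgcggctgga
POLE2 (polymerase epsilon subunit), chr14:49688199-49688228, minus strand: gcggcggtgGCGCCAAAtcgcaaatatggc
PCNA (sliding clamp), chr20:5126661-5126690, minus strand: gcgtcagggGCGGGAAAaggcgtgcgtttc
TIPIN (fork protection), chr15:66356731-66356760, minus strand: ccgcacggaTTTGGCGCCAAAcgctgcggg
E2F1 (transcription factor), chr20:33686398-33686427, minus strand: ggctctttcGCGGCAAAaaggaTTTGGCGC
E2F2 (transcription factor), chr1:23531255-23531284, minus strand: ggcacgacgTTTGGCGCtaaaaaaaaaaaa

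At least 1 such word stood in a window of 21 of the 38 genes (55.3%), against 654 of 9985 tested genes with a window (6.55%) and 3.31% of all windows of that length. By subset it was found for 7 of 9 helicase genes, 3 of 6 origin licensing genes, 4 of 8 polymerase and primase genes, 2 of 6 clamp and clamp loader genes and 2 of 4 fork protection and checkpoint genes. It was also found for 1 of 3 strand processing and ssDNA binding genes and 2 of 2 E2F factors. Of the 29 words in these windows, 19 lay within 100 bases before the start and 4 after it. A word was found for 14 of the 25 genes lower with TNF in control siRNA cells (56.0%) and for 6 of the 11 tested genes that were not called lower (54.5%). For the p53 siRNA in untreated cells it was found for 19 of 32 lower genes (59.4%) and 1 of 4 not called lower (25.0%). The word CCAAT, bound by the factor NF-Y, stood in windows of 23 of the 38 genes (60.5%), against 43.5% of the tested genes, and overlapped an E2F word in 1 window. TTTGAA or TTCGAA, the words of the cell cycle homology region of mitotic promoters, stood in windows of 2 of the 38 (5.26%), against 16.3% of tested genes and 14 of 20 mitosis genes (70.0%). A match is a run of letters in this window, and binding was not measured.

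The arrays had median intensities from 226 to 266, with 19810 to 21157 of 47322 probes detected. The 3 p53 siRNA untreated arrays stood apart from each other: their lowest correlation with an array of the same group was 0.974 to 0.977, against 0.992 to 0.993 elsewhere. In that group, 209, 100 and 551 genes of replicates 1, 2 and 3 lay 2-fold or more from the mean of the other 2 arrays, against 23 to 47 on the other 9 arrays. The replication genes shared this spread, with a median SD of 0.29 on the log2 scale over the p53 siRNA untreated arrays and of 0.09 to 0.10 in the other groups. All groups share 1 estimate of the spread, so leaving out 1 of these arrays can also move calls between other groups, and the counts of calls are given without it where they moved. VIM, CD44, AXL, CAV1 and 4 more markers high in MDA-MB-231 cells were detected on all 12 arrays. Of 8 luminal markers, ESR1, PGR and CDH1 were detected on 0 arrays, KRT19 and ERBB3 on all 12 and the other 3 on some. Of 9 leukocyte genes with a probe, PTPRC, CD3E and CD4 were detected on 0 arrays and 6 on at least 1, CD14 and CSF1R on all 12. Of 10 fibroblast and endothelial genes, VWF, CDH5 and KDR were detected on 0 arrays and PECAM1 and PDGFRB on all 12. Over the 6 tested genes of that last list, the median level relative to the gene's mean ran from -0.73 to -0.52 in control untreated, -0.26 to 0.08 in control TNF, -0.01 to 0.24 in p53 siRNA untreated and 0.40 to 0.65 in p53 siRNA TNF arrays, the opposite order to the replication genes. PDGFRB went the other way, at -1.19 and -1.64 with the p53 siRNA untreated and under TNF, and the part of this list in these results was not tested.

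Across the 4 groups, nearly all the replication genes had 1 order of levels, highest in untreated control siRNA cells and lowest in p53 siRNA cells given TNF. The mean was highest in untreated control cells for 42 of the 43 tested genes, against 28.3% of all genes, and DBF4 was the exception. It was lowest in p53 siRNA cells with TNF for 37, against 26.1% of all genes. For 33 of the 43 the means fell in the full order control untreated, control TNF, p53 siRNA untreated, p53 siRNA TNF, against 11.6% of all genes. For 25 of the 43 all 3 p53 siRNA untreated arrays lay below all 3 control TNF arrays, against 20.7% of all genes. Taking each gene relative to the mean of its 4 group means, the median of the 43 was 0.96, 0.85 and 0.95 on the control untreated arrays and 0.22, 0.19 and 0.12 on the control TNF arrays. It was -0.14, -0.53 and -0.45 on the p53 siRNA untreated arrays and -0.68, -0.64 and -0.63 on the p53 siRNA TNF arrays. The groups did not overlap in this median, and replicate 1 of the p53 siRNA untreated arrays was the highest of its group.

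**Figure D1:**
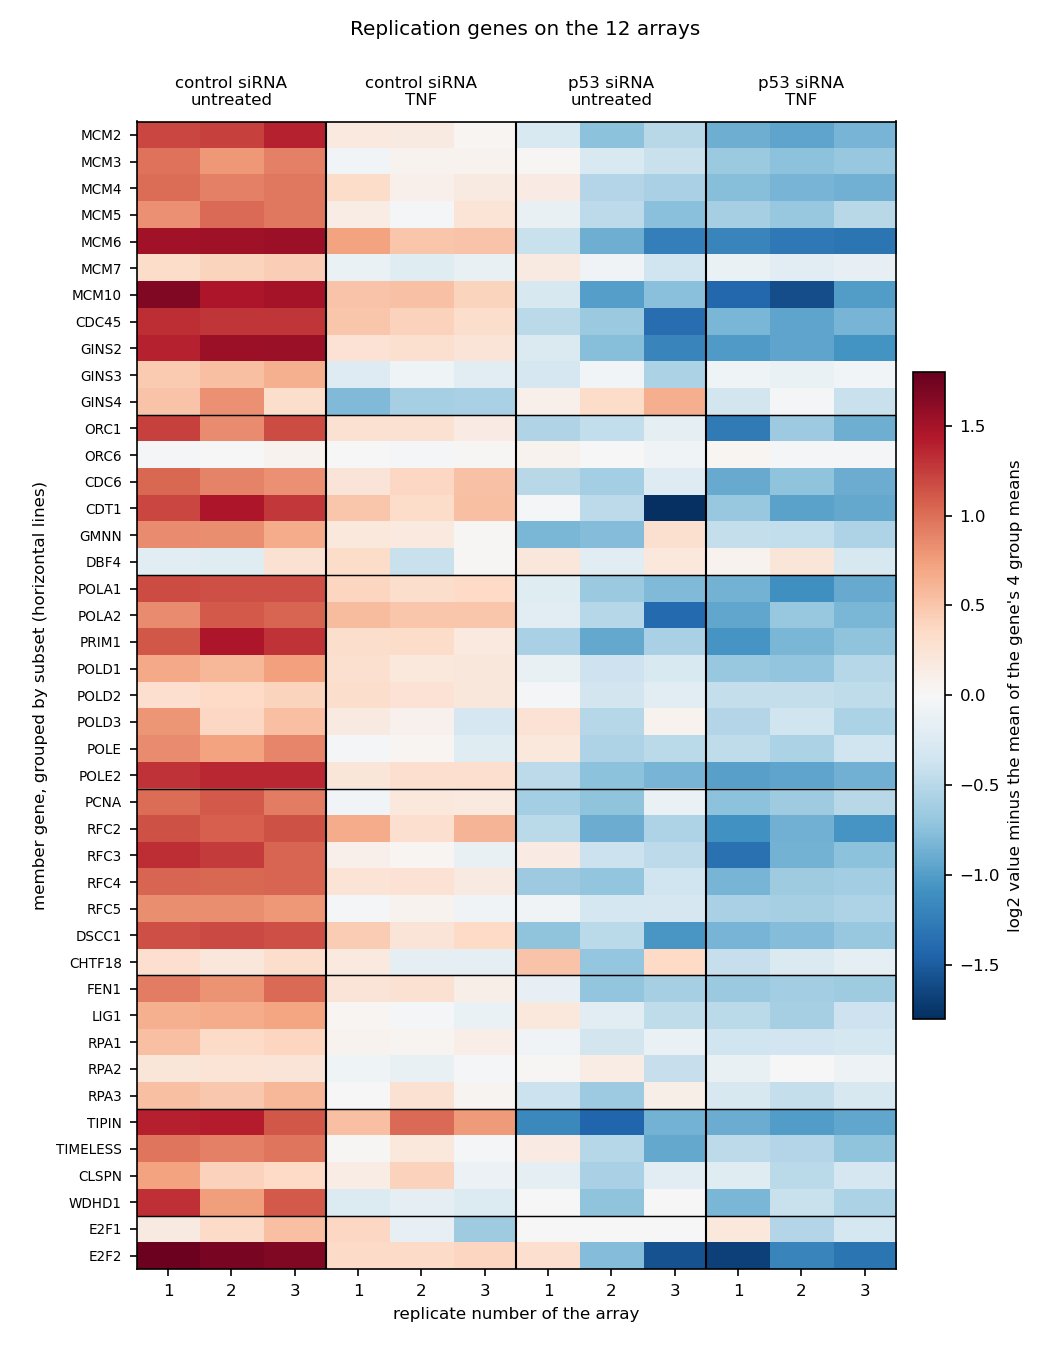
Colour gives the normalised log2 value of each of the 43 tested replication genes (rows, grouped by subset) on each of the 12 arrays (columns, by group and replicate number), minus the mean of the gene's 4 group means. Red marks higher and blue lower values, and the scale ends at the values shown on its bar. The control untreated arrays are red for nearly every gene and the p53 siRNA TNF arrays blue, while ORC6 and DBF4 stay pale throughout.

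TNF lowered most replication genes in cells with the control siRNA. Of the 43 tested genes 29 fell and 0 rose at an adjusted p under 0.05 (limma, Benjamini-Hochberg over all 12507 genes), against 9.59% of all genes called, 4.69% lower and 4.89% higher. The median change of the 43 was -0.81 on the log2 scale, with a range of -1.35 to 0.03, against -0.01 over all genes. In 38 of the 43 the 3 TNF arrays did not overlap the 3 untreated arrays, against 33.7% of all genes, and 17.7% of all genes were apart and lower. The count was 30, 32 and 36 without replicate 1, 2 or 3 of the p53 siRNA untreated arrays, and the 7 genes added without replicate 3 were CDT1, GMNN, POLA2, RPA1, RPA2, RPA3 and TIPIN. In RNA of whole cultures, fewer cells in S phase and less RNA of these genes per cell cannot be told apart, here and in every comparison that follows.

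TNF lowered few of them in cells with the p53 siRNA. There 3 of 43 fell and 0 rose, against 7.8% of all genes called, 3.85% lower and 3.95% higher, with a median change of -0.21 and a range of -0.74 to 0.22. The 3 were MCM3 and MCM10 of the helicase and RFC3 of the clamp loader, and all 3 also fell with TNF in control siRNA cells, where they were 3 of 29. The groups did not overlap for 13 of 43, against 23.3% of all genes (12.2% apart and lower), and at an unadjusted p under 0.05 the count was 16, all lower (37.2%, against 21% of all genes in either direction). The change was above 0 for 4 of 43, against 49% of all genes. The count depended on single arrays: it was 13 without replicate 3 of the p53 siRNA untreated arrays, when 1717 genes in all were called, 9 without replicate 2 and 1 without replicate 1. It was 0 without replicate 1 of the p53 siRNA TNF arrays and 1 without replicate 2. The MCM10 call was also lost without any 1 of the control siRNA arrays (adjusted p = 0.0657 to 0.0707). With median scaling in place of quantile normalisation, or when only the 2 compared groups were fitted, 0 were called, and 6 were called over genes detected on all 12 arrays. Over the 43 genes the 2 TNF effects, which share no array, had a Pearson correlation of 0.489, against 0.628 over all genes. These points share arrays and genes regulated together, and no p is given.

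The p53 siRNA lowered most replication genes in untreated cells. Here 37 of 43 fell and 0 rose, against 35.6% of all genes called, 17.9% lower and 17.7% higher, with a median change of -1.36 and a range of -2.45 to 0.11. The arrays did not overlap for 39 of 43, against 43.2% of all genes (21.6% apart and lower). This comparison shares its control arrays with the TNF effect in control siRNA cells, so a gene high on those 3 arrays is low in both. Under median scaling the median of all genes moved by -0.15, calls in the higher direction went from 49.7% to 24.7% of all calls, and the replication genes lay at a median of -1.37 relative to all genes in each scaling.

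In TNF-treated cells the p53 siRNA lowered 30 of 43 and raised 0, against 30.9% of all genes called, 16.5% lower and 14.4% higher, with a median change of -0.73 and a range of -1.84 to 0.40. The count was 32 without any 1 of the p53 siRNA untreated arrays. All 30 were among the 37 of the untreated cells, and 37 of 43 did not overlap, against 53.9% of all genes (27.1% apart and lower). Over the 43 genes the 2 siRNA effects, which share no array, had a Pearson correlation of 0.911, against 0.823 over all genes, with no p given. Under median scaling the median of all genes moved by -0.16, higher calls went from 46.6% to 18.8% of calls, and the replication genes lay -0.81 below the median of all genes in place of -0.75.

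The difference between the TNF effects of the 2 siRNAs, which is also the difference between the siRNA effects with and without TNF, was above 0 for 40 of the 43 replication genes, against 49.6% of all genes, with a median of 0.47. None of the 43 was called in limma's test of this difference, against 27 of 12507 genes (0.216%, with 0.08% higher and 0.136% lower), and the smallest adjusted p was 0.0712. At an unadjusted p under 0.05 it was above 0 for 19 and below 0 for 0 of the 43 (44.2%), against 10.3% of all genes in either direction. GINS3, a GINS subunit, had a difference of 0.94 (95% interval 0.54 to 1.33), and POLE2, the accessory subunit of polymerase epsilon, one of 0.81 (0.47 to 1.15), both at an adjusted p of 0.0712. GINS2, at 0.95 (0.40 to 1.51), had an adjusted p of 0.197. Calls appeared when 1 p53 siRNA untreated array was left out, with 3 without replicate 1 (GINS2, POLE, POLE2), 1 without replicate 2 (GINS3) and 5 without replicate 3 (GINS3, GMNN, POLE2, PCNA, RFC4). In the values the authors processed, 5 were called (MCM2, GINS3, PRIM1, POLE2, DSCC1), with array weights 3 (GINS3, POLE2, RFC4) and with a larger offset of 50 POLE2 alone. All of these were above 0, that is, less lowered by TNF under the p53 siRNA.

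**Figure D2:**
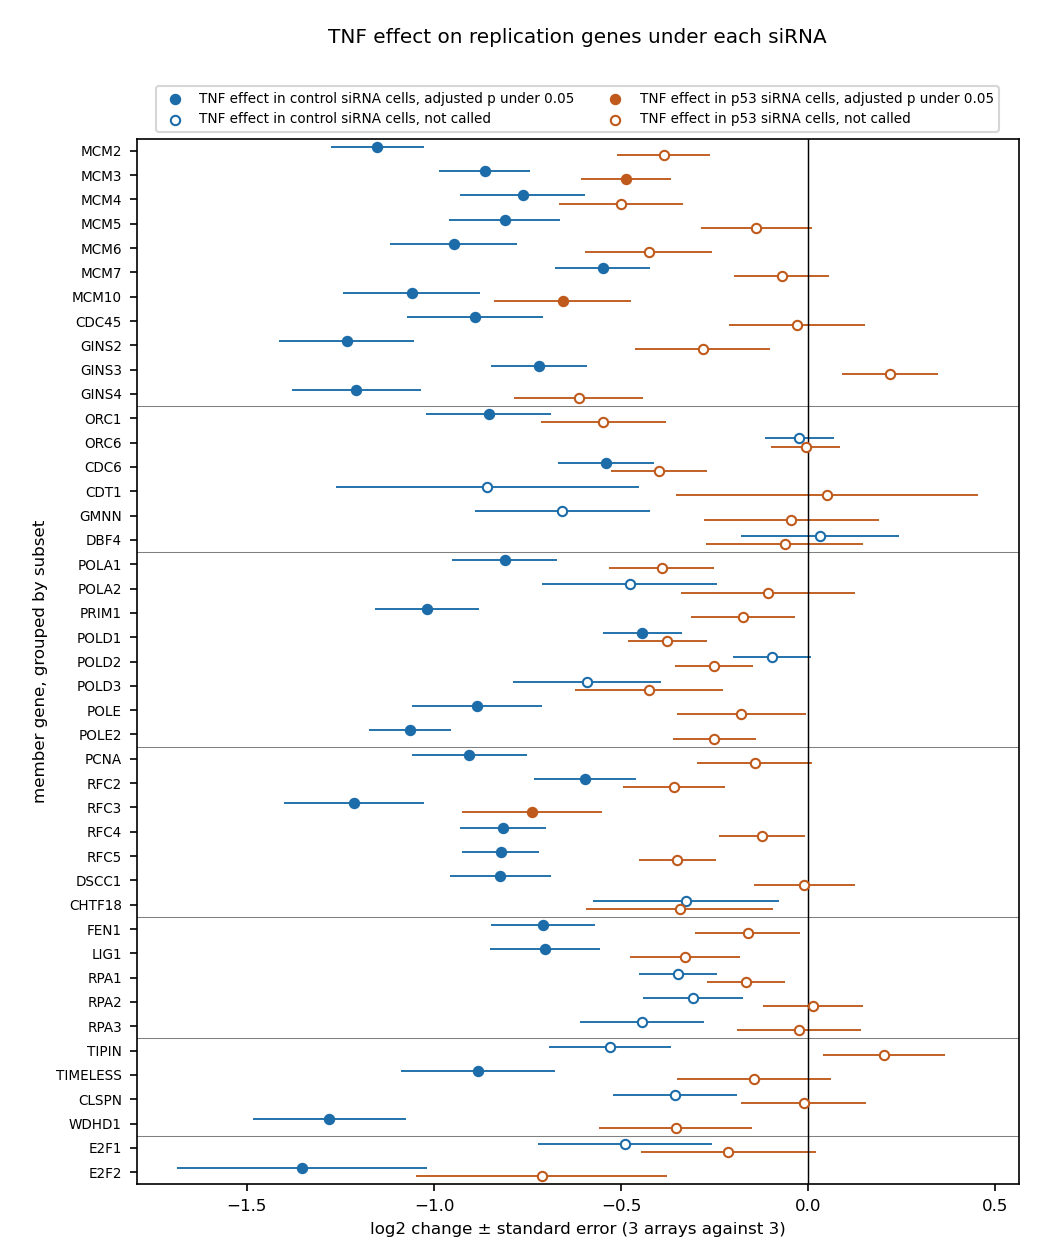
Points give the log2 change with TNF of each tested replication gene (rows, grouped by subset) under the control siRNA (blue) and the p53 siRNA (orange), and bars the standard error of the fit, 3 arrays against 3. Filled points are at an adjusted p under 0.05: 29 of 43 under the control siRNA, all left of 0, and 3 of 43 under the p53 siRNA.

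The helicase genes were lowered throughout the subset by TNF in control siRNA cells, 11 of 11 tested, and 10 of 11 were lower with the p53 siRNA in untreated cells. Beside the counts of every subset stand the shares of all genes called lower: 4.69% and 3.85% with TNF under control and p53 siRNA. With the p53 siRNA untreated and under TNF these shares were 17.9% and 16.5%. MCM2, a subunit of the MCM ring, was at 11.00, 11.03 and 11.19 on the control untreated arrays, 9.97, 9.96 and 9.83 with TNF, 9.52, 9.06 and 9.30 with the p53 siRNA, and 8.91, 8.85 and 8.96 with both. The 4 groups did not overlap, and each step down was complete on every array. Its change with TNF was -1.15 ± 0.12 (SE), 2.22-fold lower (adjusted p = 9.1e-05), in control siRNA cells and -0.39 ± 0.12 (adjusted p = 0.0855) in p53 siRNA cells. The p53 siRNA lowered it too: MCM2 fell by 1.78 on the log2 scale untreated, or 3.43-fold (adjusted p = 2.08e-06), and by 1.01 under TNF (adjusted p = 9.37e-05).

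MCM3, another ring subunit, was at 14.37, 14.18 and 14.30, at 13.34, 13.45 and 13.46, at 13.42, 13.13 and 12.996, and at 12.72, 12.65 and 12.71 in the same order of groups. The control TNF and p53 siRNA untreated arrays overlapped here, and the other groups were apart. It was among the 3 genes lowered by TNF under both siRNAs, by -0.87 ± 0.12 (adjusted p = 0.00068) and -0.49 ± 0.12 (adjusted p = 0.0283). MCM4 and MCM5 of the ring changed by -0.76 and -0.81 with TNF in control siRNA cells and by -1.28 and -1.39 with the p53 siRNA in untreated cells, all called. MCM6 had the largest p53 siRNA effect of the helicase genes, -2.36 ± 0.17 untreated (5.14-fold lower, adjusted p = 2.45e-06) and -1.84 ± 0.17 under TNF (3.58-fold lower, adjusted p = 1.37e-05). MCM10, a helicase activator, was 4.66-fold and 3.52-fold lower, and CDC45, part of the active helicase, 4.40-fold and 2.42-fold lower (adjusted p = 8.18e-06 and 0.000271).

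The GINS subunits, which work in 1 complex, differed from each other. GINS2 was 2.35-fold lower with TNF in control siRNA cells, 4.68-fold lower with the p53 siRNA untreated and 2.42-fold lower with it under TNF, all called. GINS3 was 1.65-fold lower with TNF (adjusted p = 0.00374) and 1.81-fold lower with the p53 siRNA untreated (adjusted p = 0.000342), but at 0.08 ± 0.13 with the siRNA under TNF (adjusted p = 0.673), where median scaling turned the sign to -0.13. GINS4 was at 11.69, 12.01 and 11.49 in control untreated, 10.39, 10.58 and 10.59 in control TNF, 11.27, 11.51 and 11.83 in p53 siRNA untreated and 10.84, 11.15 and 10.78 in p53 siRNA TNF arrays. Its untreated arrays overlapped between the siRNAs, unlike those of most genes here, and its lowest group was control TNF, alone among the 43. TNF lowered it by 1.21 on the log2 scale in control siRNA cells (adjusted p = 0.000785), and the p53 siRNA effect was -0.19 ± 0.17 untreated (adjusted p = 0.425) and 0.40 ± 0.17 under TNF (adjusted p = 0.0971). MCM7, a ring subunit, was at -0.48 ± 0.13 with the p53 siRNA untreated (adjusted p = 0.0111) and at -0.00 ± 0.13 under TNF. Its call with TNF in control siRNA cells was lost without replicate 2 or 3 of either control group (adjusted p = 0.0521 to 0.0682). That of MCM4 was lost without control TNF replicate 2 (adjusted p = 0.054).

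**Figure D3:**
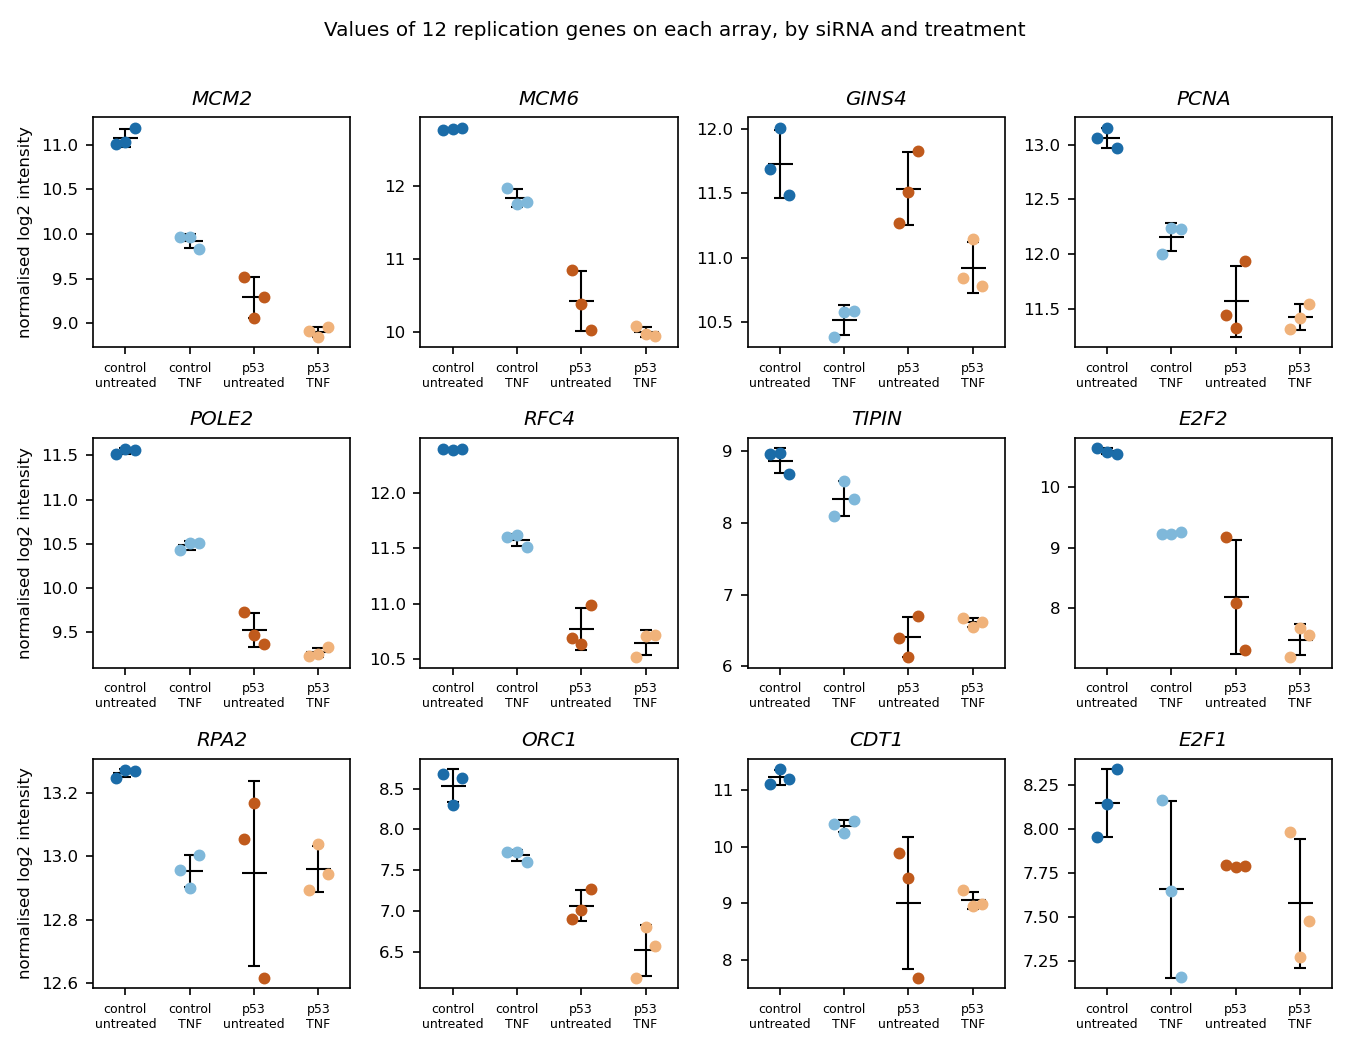
Normalised log2 intensity of 12 replication genes on each array, with 1 panel for each gene, 1 point for each array, the group mean as a line and the SD over 3 arrays as a bar. The axes do not start at 0 and differ between panels. MCM2, MCM6, POLE2 and RFC4 step down from control untreated to p53 siRNA TNF, GINS4 is lowest in control TNF, and the E2F1 arrays overlap between the untreated and TNF groups of each siRNA.

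Of the 6 origin licensing genes, ORC1 and CDC6 fell with TNF in control siRNA cells, 0 fell with TNF in p53 siRNA cells, and 4 and 3 were lower with the p53 siRNA untreated and under TNF. ORC1, the largest subunit of the origin recognition complex, was at 8.68, 8.31 and 8.63 in control untreated, 7.72, 7.73 and 7.60 in control TNF, 6.90, 7.01 and 7.27 in p53 siRNA untreated and 6.18, 6.80 and 6.57 in p53 siRNA TNF arrays. Its groups did not overlap, with 1 of the last 3 arrays not detected. The changes were -0.85 ± 0.17 with TNF (adjusted p = 0.00633) and -1.48 and -1.17 with the p53 siRNA (adjusted p = 4.21e-05 and 0.000272). CDC6, which helps to load the MCM ring, was at 7.90, 7.76 and 7.69, at 7.09, 7.24 and 7.39, at 6.37, 6.26 and 6.63, and at 5.96, 6.14 and 5.97. These groups also did not overlap, but CDC6 was detected on 1 of 3 p53 siRNA untreated arrays and on 0 of 3 with TNF. CDC6 fell with TNF in control siRNA cells by 0.54 on the log2 scale (adjusted p = 0.0195). It lost that call without replicate 1 or 2 of either control group and in the authors' processed values (adjusted p = 0.0561 to 0.0894). With the p53 siRNA it was 2.57-fold lower untreated (adjusted p = 1.43e-05), a size that rests on 2 undetected arrays, and at least 1.69-fold lower under TNF (adjusted p = 3.53e-05), where "at least" sets the brighter group against the lowest signal of a detected probe on each array of the dim group.

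CDT1, the partner of CDC6 in loading, was at 11.11, 11.37 and 11.19, at 10.41, 10.24 and 10.45, at 9.90, 9.44 and 7.69, and at 9.23, 8.96 and 8.99. The control groups did not overlap, while the 7.69 of p53 siRNA untreated replicate 3 lay apart from both other arrays of its group. CDT1 was 4.64-fold lower with the p53 siRNA untreated (adjusted p = 0.00127), a size that includes the 7.69. Under TNF it was 2.47-fold lower (adjusted p = 0.0283). That call was lost without any 1 of the control TNF or p53 siRNA TNF arrays (adjusted p = 0.0523 to 0.0771). The TNF effects of CDT1 were -0.86 ± 0.40 in control siRNA cells (adjusted p = 0.253) and 0.05 ± 0.40 in p53 siRNA cells (adjusted p = 0.964). Without p53 siRNA untreated replicate 3 they were -0.86 (adjusted p = 0.00181) and -0.61 (adjusted p = 0.0231). Array weights and a fit of the control groups alone also called the former (adjusted p = 0.00778 and 0.00238). GMNN, the CDT1 inhibitor geminin, was at 11.57, 11.55 and 11.38, at 10.91, 10.88 and 10.74, at 9.89, 9.93 and 11.00, and at 10.28, 10.26 and 10.15. Here p53 siRNA untreated replicate 3 was the high array of its group. The GMNN change was -0.66 ± 0.23 with TNF in control siRNA cells (adjusted p = 0.112, and 0.000716 without that array) and -1.23 ± 0.23 with the p53 siRNA untreated (adjusted p = 0.00164).

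DBF4, the activating subunit of the CDC7 kinase, and ORC6, a small subunit of the origin recognition complex, were called in 0 comparisons. DBF4 ranged from 6.25 to 6.98 over the 12 arrays, with every group overlapping the others and 9 of 12 arrays detected. ORC6 ranged from 16.01 to 16.14, and its changes were between -0.02 and -0.00 in the 4 siRNA and TNF comparisons. This ORC6 probe was the 3rd brightest of 47322, at a mean intensity of 69360. At that rank quantile normalisation holds values close together, with 16.1431 on both control untreated replicate 3 and p53 siRNA untreated replicate 1. A change could thus be hidden, so the lack of calls does not show that ORC6 was unchanged. A further ORC6 probe at a mean intensity of 819 changed by -0.82 ± 0.17 with TNF in control siRNA cells (adjusted p = 0.0133 over all kept probes) and by -1.11 and -0.63 with the p53 siRNA (adjusted p = 0.000539 and 0.0194).

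Of the 8 polymerase and primase genes tested, 5 fell with TNF in control siRNA cells, 0 in p53 siRNA cells, and 8 and 6 were lower with the p53 siRNA untreated and under TNF. POLE2, accessory subunit of the leading strand polymerase epsilon, was at 11.51, 11.57 and 11.56 in control untreated, 10.43, 10.51 and 10.51 in control TNF, 9.73, 9.47 and 9.37 in p53 siRNA untreated and 9.23, 9.25 and 9.34 in p53 siRNA TNF arrays. Its groups did not overlap. It fell 2.09-fold with TNF in control siRNA cells (adjusted p = 6.66e-05), the lowest p of the 43, and 4.06-fold with the p53 siRNA untreated (adjusted p = 5.24e-07), also the lowest of the 43. PRIM1, the catalytic primase subunit, was at 10.93, 11.27 and 11.10, at 10.13, 10.14 and 9.98, at 9.22, 8.89 and 9.23, and at 8.74, 8.99 and 9.09. The p53 siRNA groups overlapped and the others did not. PRIM1 was 2.03-fold lower with TNF in control siRNA cells (adjusted p = 0.000576) and 3.96-fold lower with the p53 siRNA untreated (adjusted p = 2.08e-06).

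POLA1 and POLE, the catalytic subunits of polymerases alpha and epsilon, were 1.76-fold and 1.85-fold lower with TNF in control siRNA cells and 3.30-fold and 2.14-fold lower with the p53 siRNA untreated, all called. POLD1, the catalytic subunit of the lagging strand polymerase delta, was at -0.44 ± 0.11 with TNF in control siRNA cells (adjusted p = 0.0195) and -0.93 ± 0.11 with the p53 siRNA untreated (adjusted p = 4.42e-05). The former call was lost under median scaling (adjusted p = 0.195). Leaving out control untreated replicate 1 or 3, or control TNF replicate 2 or 3, also lost it (adjusted p = 0.0676 to 0.0842). POLD2, an accessory subunit, was at 11.62, 11.68 and 11.73, at 11.64, 11.57 and 11.53, at 11.30, 10.99 and 11.11, and at 10.89, 10.89 and 10.87. Its control groups overlapped, with a TNF effect of -0.10 ± 0.10 (adjusted p = 0.689), and all p53 siRNA arrays lay below them. POLD2 fell by 0.54 and by 0.70 on the log2 scale with the p53 siRNA untreated and under TNF (adjusted p = 0.00169 and 0.000375). POLD3, a further accessory subunit, and POLA2, the accessory subunit of polymerase alpha, were at -0.59 ± 0.20 and -0.48 ± 0.23 with TNF in control siRNA cells (adjusted p = 0.0899 and 0.273). POLA2 was called there without p53 siRNA untreated replicate 3 (adjusted p = 0.0157) and POLD3 without replicate 2 (adjusted p = 0.031). POLA2 was at 10.35, 10.61 and 10.55, at 10.08, 10.00 and 10.00, at 9.30, 8.99 and 8.10, and at 8.57, 8.82 and 8.68. Its control groups were apart and its p53 siRNA groups overlapped, with 8.10 on replicate 3. It was 3.26-fold lower with the p53 siRNA untreated (adjusted p = 0.000172). POLD3 ranged from 9.04 to 9.47 in control untreated, 8.37 to 8.83 in control TNF, 8.15 to 8.93 in p53 siRNA untreated and 8.09 to 8.31 in p53 siRNA TNF arrays.

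Of the 7 clamp and clamp loader genes, 6 fell with TNF in control siRNA cells, 1 in p53 siRNA cells, and 6 in each p53 siRNA comparison. RFC4 and RFC5 are subunits of replication factor C, which opens the clamp and sets it on DNA. RFC4 was at 12.40, 12.39 and 12.40 in control untreated, 11.60, 11.62 and 11.52 in control TNF, 10.70, 10.64 and 10.99 in p53 siRNA untreated and 10.52, 10.71 and 10.72 in p53 siRNA TNF arrays. The p53 siRNA groups overlapped, and the control groups stood apart from each other and above them. RFC5 was at 12.35, 12.35 and 12.29, at 11.49, 11.57 and 11.46, at 11.45, 11.19 and 11.21, and at 10.93, 10.91 and 10.96. None of its groups overlapped. Both fell with TNF in control siRNA cells by 0.82 on the log2 scale (adjusted p = 0.000715 for RFC4 and 0.000285 for RFC5), and with the p53 siRNA untreated they were 3.07-fold and 2.06-fold lower.

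RFC3, a further loader subunit, had the largest TNF effects of the subset under both siRNAs, -1.21 ± 0.19 (adjusted p = 0.00137) and -0.74 ± 0.19 (adjusted p = 0.0316). RFC2 was 1.51-fold lower with TNF in control siRNA cells and 3.41-fold lower with the p53 siRNA untreated. The former call was lost under median scaling (adjusted p = 0.103). Leaving out control untreated replicate 1 or 3, or control TNF replicate 2, also lost it (adjusted p = 0.057 to 0.0718). PCNA, the clamp itself, was 1.87-fold lower with TNF (adjusted p = 0.00265), at -0.14 ± 0.15 with TNF under the p53 siRNA (adjusted p = 0.659), and 2.82-fold and 1.66-fold lower with the p53 siRNA untreated and under TNF. The alternative loader that carries CHTF18 and DSCC1 was not uniform. DSCC1 was 1.77-fold lower with TNF in control siRNA cells (adjusted p = 0.00219) and 3.80-fold lower with the p53 siRNA untreated (adjusted p = 2.08e-06). CHTF18 was at 8.97, 8.87 and 8.99, at 8.84, 8.50 and 8.50, at 9.19, 7.97 and 9.03, and at 8.26, 8.41 and 8.49. The control groups did not overlap, the p53 siRNA untreated arrays spanned all the other values, and CHTF18 was called in 0 comparisons, with changes of -0.33, -0.34, -0.21 and -0.23 and standard errors of 0.25.

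Of the 5 strand processing and ssDNA binding genes, 2 fell with TNF in control siRNA cells, 0 in p53 siRNA cells, and 4 and 3 were lower with the p53 siRNA untreated and under TNF. FEN1, the flap endonuclease that trims lagging strand pieces, was at 13.66, 13.56 and 13.76 in control untreated, 12.98, 13.02 and 12.86 in control TNF, 12.60, 12.04 and 12.15 in p53 siRNA untreated and 12.08, 12.12 and 12.10 in p53 siRNA TNF arrays. LIG1, the ligase that seals them, was at 10.93, 10.95 and 10.99, at 10.32, 10.27 and 10.16, at 10.48, 10.08 and 9.83, and at 9.80, 9.68 and 9.91. For both genes the control groups were apart, and for LIG1 the p53 siRNA untreated arrays overlapped both the control TNF and the p53 siRNA TNF arrays. FEN1 and LIG1 were each 1.63-fold lower with TNF in control siRNA cells (adjusted p = 0.0067 and 0.0094), and 2.63-fold and 1.77-fold lower with the p53 siRNA untreated.

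Replication protein A, the trimer that coats ssDNA, was not called with TNF in any of its subunits when all 12 arrays were fitted. RPA1 was at 13.32, 13.14 and 13.18, at 12.85, 12.83 and 12.91, at 12.73, 12.46 and 12.66, and at 12.43, 12.45 and 12.47. RPA2 was at 13.25, 13.27 and 13.27, at 12.96, 12.90 and 13.002, at 13.06, 13.17 and 12.62, and at 12.89, 13.04 and 12.94. For both, as for RPA3, the control groups did not overlap, while the p53 siRNA groups did. Their TNF effects in control siRNA cells were -0.35 ± 0.10, -0.31 ± 0.13 and -0.44 ± 0.17 for RPA1, RPA2 and RPA3 (adjusted p = 0.0573, 0.205 and 0.134). All 3 were called there without p53 siRNA untreated replicate 3 (adjusted p = 0.0266, 0.022 and 0.0175), with array weights and when only the control groups were fitted, and RPA1 was called in 5 further alternatives. RPA3 was at 13.74, 13.69 and 13.80, at 13.19, 13.47 and 13.24, at 12.82, 12.54 and 13.30, and at 12.91, 12.77 and 12.91. In untreated cells the p53 siRNA lowered both RPA1 and RPA3, which fell by 0.60 and by 0.86 on the log2 scale (adjusted p = 0.000917 and 0.00182). RPA2 was at -0.32 ± 0.13 (adjusted p = 0.0849), and median scaling called it, at -0.52.

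Of the 4 fork protection and checkpoint genes, 2 fell with TNF in control siRNA cells, 0 in p53 siRNA cells, and 4 and 3 were lower with the p53 siRNA untreated and under TNF. TIPIN, which with TIMELESS keeps helicase and polymerase together, was at 8.96, 8.96 and 8.67 in control untreated, 8.09, 8.58 and 8.32 in control TNF, 6.39, 6.13 and 6.70 in p53 siRNA untreated and 6.67, 6.54 and 6.62 in p53 siRNA TNF arrays. All 6 p53 siRNA arrays lay far below the control arrays, with 1 of 3 untreated and 3 of 3 TNF arrays detected. TIPIN was 5.48-fold lower with the p53 siRNA in untreated cells (adjusted p = 1.5e-06), a size that rests on 2 undetected arrays, and 3.30-fold lower under TNF (adjusted p = 1.67e-05). Its TNF effects were -0.53 ± 0.16 in control siRNA cells (adjusted p = 0.0642, and 0.0248 without p53 siRNA untreated replicate 3) and 0.20 ± 0.16 in p53 siRNA cells (adjusted p = 0.533). TIMELESS was at 11.40, 11.35 and 11.40, at 10.47, 10.63 and 10.40, at 10.58, 9.93 and 9.53, and at 9.97, 9.91 and 9.72. Its control groups were apart, and its p53 siRNA untreated arrays overlapped both TNF groups. It was 1.84-fold lower with TNF in control siRNA cells (adjusted p = 0.0176) and 2.58-fold lower with the p53 siRNA untreated (adjusted p = 0.000342). The former call was lost without any 1 of the control untreated arrays, or without control TNF replicate 1 or 3 (adjusted p = 0.0508 to 0.0691).

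WDHD1, which links the helicase to polymerase alpha, was at 9.46, 8.89 and 9.25, at 7.89, 7.97 and 7.90, at 8.15, 7.41 and 8.13, and at 7.31, 7.75 and 7.57. Control untreated lay above all other arrays, and the p53 siRNA untreated arrays spanned the control TNF arrays. It was 2.43-fold lower with TNF in control siRNA cells (adjusted p = 0.00174) and 2.46-fold lower with the p53 siRNA untreated (adjusted p = 0.000455), with -0.38 ± 0.20 for the siRNA under TNF (adjusted p = 0.191). CLSPN, the claspin that passes the ATR signal to CHK1 at stalled forks, was near background, at 6.94, 6.63 and 6.57, at 6.34, 6.63 and 6.11, at 6.04, 5.62 and 6.01, and at 5.9997, 5.73 and 5.91. It was detected on 1 of 3 control TNF arrays and on 0 of 6 arrays with the p53 siRNA. With the p53 siRNA it was at least 1.20-fold lower in untreated cells (adjusted p = 0.00236), and no fold is given under TNF, where the adjusted p was 0.0456. Only control siRNA arrays carried CLSPN past the detection filter, and both calls stand in the counts. The call under TNF was lost without that filter (adjusted p = 0.0611), over all kept probes (0.0626) and in the values the authors processed (0.073).

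E2F2, an activator E2F, was at 10.64, 10.58 and 10.54 in control untreated, 9.22, 9.22 and 9.26 in control TNF, 9.17, 8.09 and 7.31 in p53 siRNA untreated and 7.19, 7.68 and 7.56 in p53 siRNA TNF arrays. Its control groups were tight and apart, and its p53 siRNA untreated arrays were spread from just below the control TNF arrays into the p53 siRNA TNF range. It had the largest TNF effect of the 43 genes in control siRNA cells, 2.55-fold lower (adjusted p = 0.0237), and was 5.26-fold lower with the p53 siRNA untreated (adjusted p = 0.000202) and 3.37-fold lower under TNF (adjusted p = 0.00201). The call of its TNF effect was lost without any 1 of the control siRNA arrays (adjusted p = 0.065 to 0.0759). E2F1, the other activator in the set, was at 7.96, 8.14 and 8.34, at 8.17, 7.65 and 7.16, at 7.80, 7.78 and 7.79, and at 7.98, 7.27 and 7.48. The TNF and untreated arrays overlapped under each siRNA, and E2F1 was called in 0 comparisons, with changes from -0.49 to -0.08.

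**Figure D4:**
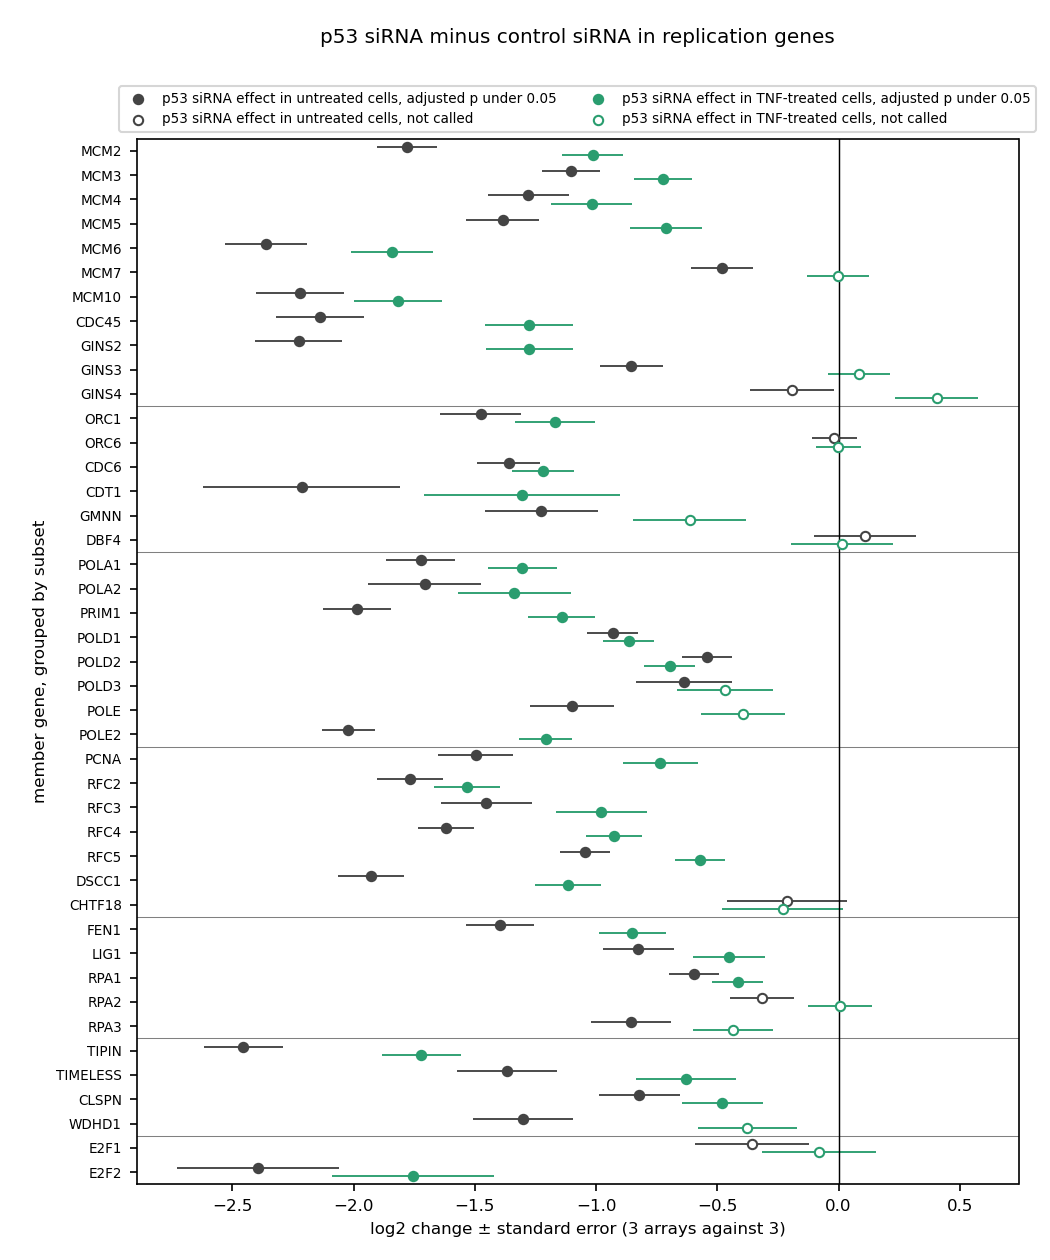
Points give the log2 change with the p53 siRNA of each tested replication gene (rows, grouped by subset) in untreated cells (dark) and under TNF (green), and bars the standard error of the fit, 3 arrays against 3. Filled points are at an adjusted p under 0.05, 37 and 30 of 43, all left of 0. TIPIN, E2F2 and MCM6 lie farthest left in untreated cells, and ORC6 and DBF4 lie near 0.

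Set side by side, the subsets differed more in how many members were called than in direction. With TNF in control siRNA cells the median change was -0.89 for the helicase, -0.82 for the clamp and clamp loaders, -0.71 for fork protection and checkpoint, -0.70 for polymerase and primase, -0.60 for origin licensing and -0.44 for strand processing and ssDNA binding. The E2F factors, only 2 genes, had a median of -0.92 there and -0.46 with TNF in p53 siRNA cells. With the p53 siRNA their medians were -1.38 untreated and -0.92 under TNF, and the difference between the TNF effects was 0.46. The ranges of the subsets overlapped, and no test between them was made. In p53 siRNA cells the medians were -0.39 for the helicase, -0.34 for the clamp and clamp loaders, -0.25 for polymerase and primase, -0.16 for strand processing and ssDNA binding, -0.08 for fork protection and checkpoint and -0.05 for origin licensing. With the p53 siRNA in untreated cells they were -1.50 for the clamp and clamp loaders, -1.40 for polymerase and primase, -1.39 for the helicase, -1.33 for fork protection and checkpoint, -1.29 for origin licensing and -0.83 for strand processing and ssDNA binding, and under TNF, in that order, -0.93, -1.004, -1.01, -0.55, -0.89 and -0.44. The difference between the TNF effects had medians of 0.74 for fork protection and checkpoint, 0.60 for the helicase, 0.47 for the clamp and clamp loaders, 0.39 for polymerase and primase, 0.37 for strand processing and ssDNA binding and 0.22 for origin licensing. The fork protection and checkpoint medians include CLSPN, detected on 0 arrays with the p53 siRNA, and TIPIN, detected on 1 of 3 p53 siRNA untreated arrays. Those of origin licensing include the bright ORC6 probe and the dim DBF4 and CDC6. These genes limit the order of the subsets.

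**Figure D5:**
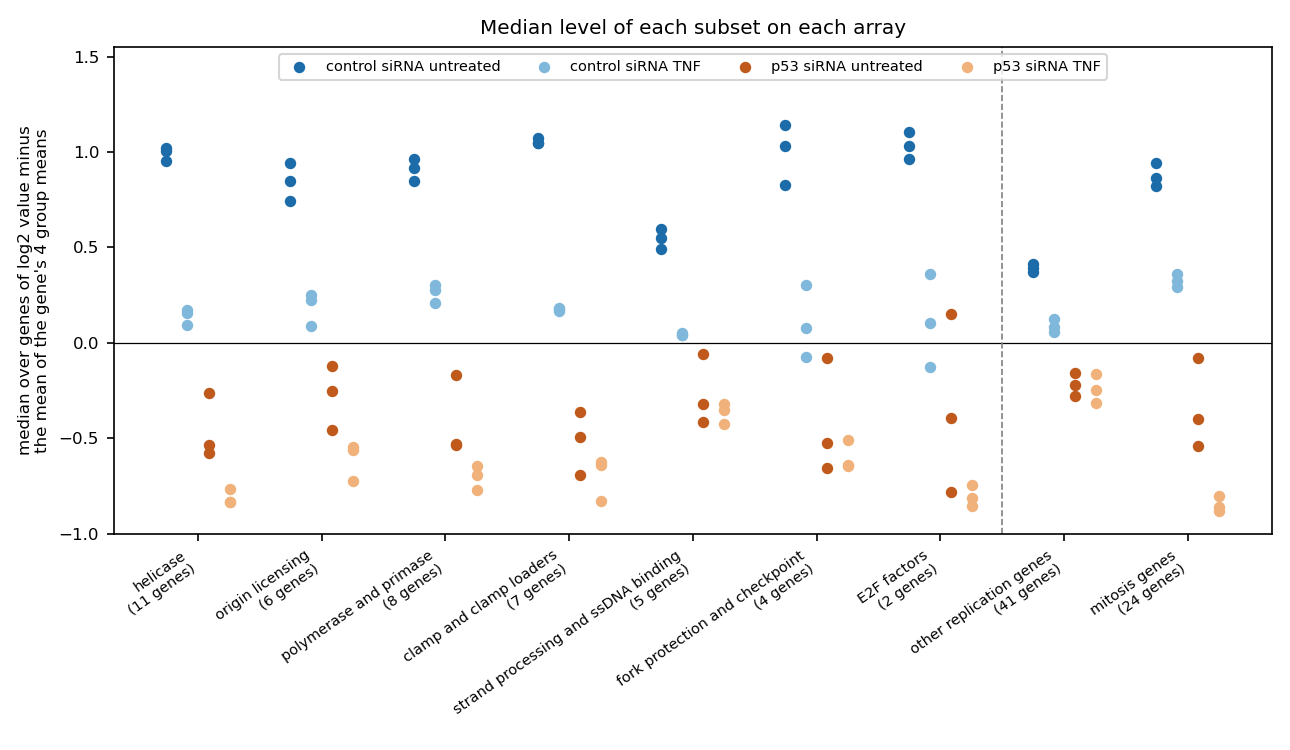
Each point is the median, over the tested genes of a subset, of the log2 value on 1 array minus the mean of the gene's 4 group means, coloured by group. The 7 replication subsets stand left of the dashed line, with 41 other replication genes and 24 mitosis genes right of it. In every subset the control untreated arrays are highest. The 4 groups do not overlap in the helicase, origin licensing, and polymerase and primase subsets, nor in the mitosis genes.

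By gene, 3 of the 43 were lower in all 4 comparisons of an siRNA or of TNF, 21 in 3, 10 in 2, 4 in 1 and 5 in 0. The comparisons share arrays, and the shares of all genes lower in several of them were not counted. The 5 were ORC6, DBF4, CHTF18, RPA2 and E2F1. ORC6 stands among them by its brighter probe, which lies near the top of the scale, where a change could be hidden. Its dimmer probe was lower in 3 of the 4, and which of the probes follows the ORC6 transcript was not tested. Of the 14 genes with more than 1 kept probe, the 17 other probes had the direction of the probe used in 17, 15, 16 and 16 cases in the TNF comparisons under control and p53 siRNA and the p53 siRNA comparisons without and with TNF. Over all 60 kept probes of the set, 41, 3, 53 and 41 were lower and 0 higher in these 4 comparisons, with no share over all probes counted. MCM7 varied between probes: with the p53 siRNA untreated, where the probe used gave -0.48, the others gave -1.66 ± 0.24 (adjusted p = 0.000365) and 0.35 ± 0.17 (adjusted p = 0.163). Under TNF the former gave -0.997 (adjusted p = 0.0105), where the probe used gave -0.00. For TNF in p53 siRNA cells, a further RFC3 probe detected on all 12 arrays was at -0.51 and was not called (adjusted p = 0.088). A further MCM10 probe and another RFC3 probe, at -0.24 and -0.15, were detected on 0 arrays of either p53 siRNA group. At background these 2 probes could not show a fall there, so they do not bear on the MCM10 and RFC3 calls. A further PCNA probe was at -0.46 with TNF in control siRNA cells (adjusted p = 0.102), and the MCM7 probe that gave 0.35 was at -0.59 (adjusted p = 0.0668). With the p53 siRNA under TNF, the RFC3 probe at background was at -0.56 and a further RPA1 probe at -0.41, neither called. There further MCM10 and RFC2 probes were called at -1.12 and -0.78, where the probes used gave -1.82 and -1.53. Their differences between the TNF effects were 1.29 and 0.80, against 0.40 and 0.24, none called. The further MCM10 probe was undetected on every p53 siRNA array, so background limits its -1.12 and 1.29.

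Other replication genes outside the set, 41 tested of 47 listed, were lower in part. Over all genes, 4.69% and 3.85% were called lower with TNF under control and p53 siRNA. With the p53 siRNA untreated and under TNF, 17.9% and 16.5% of all genes were lower and 17.7% and 14.4% higher. With TNF in control siRNA cells 12 of 41 fell and 0 rose, with a median of -0.27, among them E2F8, a repressor E2F, at -1.25, the exonuclease EXO1 at -0.96, the phosphatase CDC25A at -0.88 and MTBP, an origin firing factor, at -0.88. With TNF in p53 siRNA cells 0 were called. In untreated cells the p53 siRNA went with 21 lower and 4 higher, and the largest changes were EXO1 at -2.24, the checkpoint kinase CHEK1 at -1.75, E2F8 at -1.74 and MTBP at -1.58. Under TNF 19 fell and 3 rose, with CHEK1 at -1.41, EXO1 at -1.36, E2F5 at -1.16 and E2F7, a repressor E2F, higher at 1.22. Of 24 mitosis genes, 12 fell with TNF in control siRNA cells and 11 in p53 siRNA cells, with medians of -0.54 and -0.56, and 22 were lower in each p53 siRNA comparison. Their median difference between the TNF effects was -0.02, beside 0.47 for the replication genes, and the 2 lists were not tested against each other.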

How the data were processed

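Total RNA of 12 MDA-MB-231 cultures was measured on Illumina arrays of 1 colour, grouped by titles. Per the file headers, the deposited signal table gives intensities and detection p-values of 47322 probes, not normalised. The submitters' processing notes name GenomeStudio, without a version. The authors' deposited processed intensities, normalised in a way not given in the sources used here, served as an alternative only, lack 9 probes and have a column median of 241.6 each.

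Values were corrected, given an offset of 16, quantile normalised and put on the log2 scale with neqc of limma 3.58.1 in R 4.3.3. A detection p under 0.05 on 3 or more arrays kept 23079 probes, and the brightest kept probe with 1 gene in the platform annotation stood for each of 12507 genes. Symbols were checked by Entrez ID. A linear model of the 4 group means was fitted to the 12 arrays (lmFit, eBayes), with 5 comparisons, 2-sided tests and Benjamini-Hochberg adjustment within each. It passed a check on simulated data in which each gene had the same spread in all 4 groups. That check does not cover the wider spread of the p53 siRNA untreated arrays. The 12 arrays limit the precision.

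The 45 genes, their subsets and the other lists were chosen with earlier results of these data known. All 45 could be named. Array values are given for the 2 genes of each subset with the lowest p for TNF in control siRNA cells and for genes called in neither TNF effect, and GINS4 was added after its values were seen. Of other replication genes the 4 with the largest called change in each comparison are named, and other probes where their call differed or their change differed by over 0.5. Levels of the siRNA's own target are not reported here, and its depletion was not checked. The alternatives were median scaling, other filters, the mean of probes, all probes, the processed table, an offset of 50, the compared groups alone, array weights, a replicate block and each array left out.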

Additional observations from a re-analysis of the deposited data

How the results depend on the processing

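The direction of the replication genes held under every alternative for genes called in either setting, except CDT1 with TNF in p53 siRNA cells, which was at 0.05, at -0.61 without p53 siRNA untreated replicate 3 and at 0.49 without replicate 1. Of 43 genes, the number called with TNF in control siRNA cells was 29, and 24 to 36 with 1 array left out. With TNF in p53 siRNA cells it was 3, and 0 to 13 with 1 array left out, 0 with median scaling, 6 over genes detected on all 12 arrays, 1 with the replicate block and 0 in the compared groups alone. With the p53 siRNA it was 37 (36 to 37) untreated and 30 (26 to 32) under TNF. For the difference between the TNF effects it was 0, and 0 to 5 with 1 array left out, 5 in the authors' processed table, 1 with an offset of 50 and 3 with array weights. The causes were not tested. Weights and the fit of compared groups alone each called 1 gene higher with the p53 siRNA under TNF.

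Arrays with the same replicate number did not deviate together: over 18 such pairs the correlations ran from -0.13 to 0.19 and 1 was over 0.1, against -0.15 to 0.14 over 36 other pairs. With the replicate number as a block, 29, 1, 37, 29 and 0 genes were called in the 5 comparisons. Over all genes the calls for TNF in control siRNA cells were 1199, and 736 to 1894 with 1 array left out, 793 with median scaling and 2215 with array weights. For TNF in p53 siRNA cells they were 976, and 557 to 1717 with 1 array left out, 542 with median scaling and 310 in the compared groups alone. For the p53 siRNA untreated they were 4458, and 2954 in the compared groups alone, and for the difference 27, and 11 to 132 with 1 array left out, 12 with median scaling, 5 over genes detected on all 12 arrays, 55 in the processed table and 17 with the block.

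CDC6 and CLSPN passed the detection filter through control siRNA arrays, the groups where they were high. Dim probes limit CDC6, CLSPN, DBF4 and TIPIN, and the spread of the p53 siRNA untreated arrays limits the TNF effect in p53 siRNA cells. With bounded genes at their bound its median was -0.18 in place of -0.21.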
